A study of Mus musculus with 4 samples.

Results

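The albumin and alpha-fetoprotein cluster was described here through its 4 genes, Alb, Afp, Afm and Gc, which were taken by name from the 21951 protein-coding genes of the GENCODE M21 annotation of GRCm38 (mm10). All 4 matched. The data are PRO-seq libraries, in which engaged RNA polymerases are mapped by a nuclear run-on reaction, from tissues of E14.5 mouse embryos. Liver and yolk sac were compared, with 2 libraries each, and each library came from tissue pooled from 6 embryos. Both groups came from the same cross: C57BL/6J mothers were mated with fathers of a mixed C57BL/6J and CAST/EiJ background, chosen so that the Dlk1/Gtl2 locus of chromosome 12 carried only CAST/EiJ polymorphisms. The labels give the strain background of all 4 libraries as "Mixed C57BL/6h and CAST/EiJ", and they name no treatment or deletion. They do not say whether the replicate pools shared embryos, so the spread between replicates may be partly technical.

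The albumin family encodes large proteins secreted into plasma. Albumin (Alb) is the main plasma protein after birth and carries fatty acids and hormones. Alpha-fetoprotein (Afp) is its fetal counterpart, made by fetal hepatocytes and by the visceral endoderm of the yolk sac and silenced in the liver after birth. Afamin (Afm) binds vitamin E, and the product of Gc is the vitamin D-binding protein. Alb, Afp and Afm lie in tandem in the same orientation, and well-studied liver and endoderm enhancers lie upstream of Alb and between Alb and Afp.

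In GRCm38 the 4 genes lie on chromosome 5. Alb (ENSMUSG00000029368.10) spans 90460897 to 90476602 on the plus strand, Afp (ENSMUSG00000054932.6) spans 90490737 to 90508907 and Afm (ENSMUSG00000029369.17) spans 90518932 to 90553543. The gap is 14134 bp between Alb and Afp and 10024 bp between Afp and Afm. Gc (ENSMUSG00000035540.12) lies 1.0 Mb before Alb, at 89417522 to 89457898, on the minus strand.

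The promoters are shown because the calls below were made around the gene starts, and because they share a sequence feature that played no part in the choice of the genes. The calls and peak distances below use GENCODE starts, which can differ from the RefSeq starts used for the runs. For Alb the GENCODE start is 90460897 and the RefSeq start 90460870. The Gc promoter peak of yolk sac replicate 2 lay outside the printed run. Each run below is 300 bases long, from 250 bases before to 50 after the RefSeq start, on the gene's own strand (RefSeq, GRCm38.p6), and all 4 genes matched an entry. Capitals mark the best match to a 13-letter palindromic motif known from liver promoters, which reads GTTAAT, any base, then ATTAAC, and both strands were searched.
Alb, chr5:90460620-90460919, plus strand: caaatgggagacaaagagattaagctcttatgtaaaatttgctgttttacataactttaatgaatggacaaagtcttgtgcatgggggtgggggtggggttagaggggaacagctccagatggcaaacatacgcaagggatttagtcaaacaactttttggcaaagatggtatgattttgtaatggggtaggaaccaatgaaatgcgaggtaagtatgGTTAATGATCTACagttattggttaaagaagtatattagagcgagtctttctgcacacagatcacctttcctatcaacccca
Afp, chr5:90490464-90490763, plus strand: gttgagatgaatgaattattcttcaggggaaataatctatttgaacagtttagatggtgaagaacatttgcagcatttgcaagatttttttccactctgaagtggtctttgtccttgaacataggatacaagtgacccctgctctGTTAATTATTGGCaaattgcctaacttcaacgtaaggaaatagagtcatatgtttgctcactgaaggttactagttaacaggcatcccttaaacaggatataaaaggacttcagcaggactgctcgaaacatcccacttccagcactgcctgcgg
Afm, chr5:90518699-90518998, plus strand: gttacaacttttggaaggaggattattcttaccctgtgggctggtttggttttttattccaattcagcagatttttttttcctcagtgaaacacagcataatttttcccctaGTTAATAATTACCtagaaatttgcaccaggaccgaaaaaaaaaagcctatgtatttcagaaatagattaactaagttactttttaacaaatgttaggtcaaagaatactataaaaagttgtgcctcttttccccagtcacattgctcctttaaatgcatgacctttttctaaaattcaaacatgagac
Gc, chr5:89457849-89458148, minus strand: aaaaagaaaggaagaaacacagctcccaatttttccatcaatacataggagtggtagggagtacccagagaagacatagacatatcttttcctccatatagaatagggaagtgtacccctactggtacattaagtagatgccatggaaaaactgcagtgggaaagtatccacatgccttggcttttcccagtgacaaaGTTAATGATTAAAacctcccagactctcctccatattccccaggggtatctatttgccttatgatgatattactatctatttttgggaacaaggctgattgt

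The centre of the match lay 26 bases before the RefSeq start in Alb, 46 in Gc, 99 in Afp and 132 in Afm. The motif reads the same on both strands, so a match has no direction. Gc and Afm differed from the motif at 1 position, and Alb and Afp at 2. Among 32851 RefSeq promoters of the same length, 0.207% held a match with at most 1 mismatch and 1.36% a match with at most 2. The first 6 letters of the motif, GTTAAT, were present in all 4 promoters and in 7.10% of all promoters. Each of the 4 matches begins with these letters, so this is the same stretch and not a further feature. The TATA box letters TATAAA were found in Afp and Afm and in 13.6% of all promoters. The letters CCAAT were found in all 4 and in 37.4% of all, and the forkhead letters TGTTTAC in none of the 4 and in 3.65% of all. The promoters were poor in G and C, at 40% in Alb and in Afp, 33.0% in Afm and 40.3% in Gc, where the median of all promoters was 52.7%. These matches are a description of the letters and not evidence of a bound factor. The motif is known from liver promoters, so it was not chosen independently of genes of this kind.

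The values compared are dREG peaks, intervals that a classifier called from the run-on reads as regions of transcription initiation, promoters and enhancers alike. Each peak has a score, which is the authors' and is a classifier value rather than a level of transcription, so it was used only as a rank within its own list (100 is the highest score). The lists of liver replicates 1 and 2 hold 24863 and 24333 peaks, those of yolk sac 50525 and 43055, and the read depth behind them is unknown. Ranks from lists of unequal length show no change between tissues. Tissues were compared by a two-sided exact permutation test, for which 4 libraries allow 6 assignments and a smallest p of 0.333, so no difference could pass a conventional threshold. In bulk tissue, fewer cells of a type and less transcription per cell cannot be told apart.

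As a check of the labels, promoter peaks were counted at marker genes. Both liver lists had peaks at 10 of 10 erythroid genes and both yolk sac lists at 4, since Gata1, Klf1, Alas2, Slc4a1, Hbb-bt and Hbb-bs had no peak in yolk sac. Of 10 hepatic genes other than the members, 8 and 8 were called in liver and 7 and 7 in yolk sac. Of 10 yolk sac endoderm genes, 8 and 6 were called in liver and 10 and 10 in yolk sac, and Amn and Cubn had no peak in liver. Mesenchymal genes were called at 5 and 8 of 10 in liver and 9 and 9 in yolk sac, and endothelial genes at 6 and 7 of 8 in liver and 8 and 8 in yolk sac. What part these cell types had in the results below was not tested.

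Initiation at the cluster was found in both tissues. A peak within 500 bp of an annotated start was present at 4 of the 4 genes in liver replicate 1, 3 in liver replicate 2 and 4 in each yolk sac library (exact permutation p = 1). Alb, Afm and Gc were called in all 4 libraries, which is also true of 53.8% of coding genes. Afp lacked a call only in liver replicate 2. A call in both yolk sac libraries and 1 liver library was held by 2.86% of coding genes, and the converse, both liver libraries and 1 yolk sac library, by 0.392%. No member was liver-only or yolk-sac-only, where 1.01% and 5.25% of coding genes were, and 34.2% of coding genes had no call in any library. When each list was limited to its 24333 highest-scoring peaks, 4 and 3 members were called in liver and 1 (Afp) and 0 in yolk sac, so this count depended on the length of the lists.

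In the 3 libraries that called it, the Afp start carried the widest promoter peak of the cluster. In yolk sac it was 5952 bp wide in replicate 1 and 5002 bp in replicate 2, and in liver replicate 1 it was 2902 bp. All of these peaks crossed the start of the gene, but they differed in how far they reached upstream: 2686 and 2536 bp in yolk sac and 436 bp in liver replicate 1. Downstream they ended 3265, 2465 and 2465 bp from the start. Both yolk sac values were above the liver value (mean 5477 ± 672 bp, SD, n = 2, against the single liver value of 2902 bp; exact permutation p = 0.333, the smallest that 3 libraries allow). Of 11943 coding genes called in these 3 libraries, 10.6% had yolk sac peaks that exceeded liver replicate 1 by at least the same factor of 1.72.

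In liver replicate 2 the peaks nearest the Afp start were small and internal. They were 102 and 202 bp wide and began 1014 and 2264 bp inside the gene, at the 0.896 and 10.1 percentiles of the list. The first lay 513 bp from the nearest annotated start site, just outside the window of 500 bp, so Afp counted as called in all 4 libraries when the window was 1000 bp. The call in this library therefore depended on the window. In the yolk sac lists the Afp peak was wider than 99.7% and 99.6% of all promoter peaks at coding genes, and in liver replicate 1 it was wider than 90.9%. Promoter peaks of 5002 bp or more made up 0.553% and 0.417% of those in liver and 0.679% and 0.452% of those in yolk sac.

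**Figure D1:**
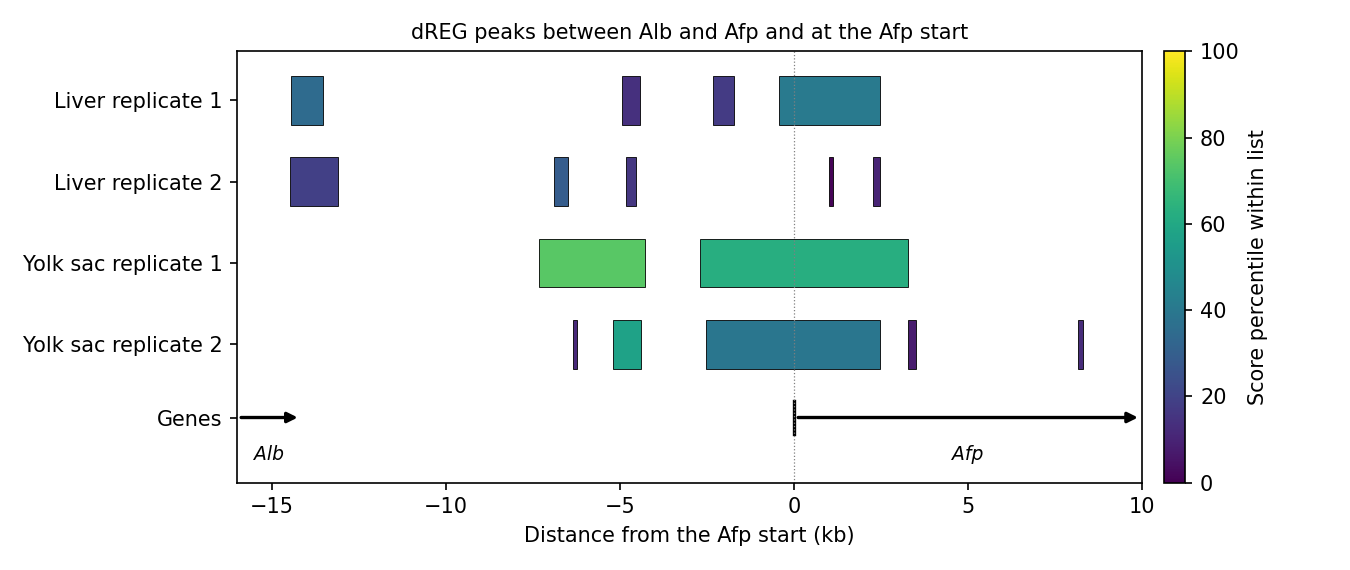
dREG peaks of the 4 libraries (rows) from 16 kb before to 10 kb after the Afp start (horizontal axis, kb), as boxes coloured by score percentile within the list, with gene bodies as arrows below. The yolk sac peaks over the Afp start were 5952 and 5002 bp wide, against 2902 bp in liver replicate 1, and liver replicate 2 had no peak over the start.

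The widths of the Alb promoter peak overlapped between tissues. It measured 2502 and 2302 bp in liver and 2502 and 1602 bp in yolk sac, with means of 2402 ± 141 and 2052 ± 636 bp (SD, n = 2; exact permutation p = 1). Yolk sac replicate 2 had the narrowest peak. Each peak crossed the annotated start, reaching 746 and 596 bp upstream in liver and 446 and 396 bp in yolk sac, so the upstream edge lay farther out in both liver libraries. The share of coding genes with such a difference in the upstream edge was not computed. Yolk sac replicate 2 had a further peak of 352 bp inside the gene, which overlapped the downstream end of the longer peak of yolk sac replicate 1 only.

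The Afm and Gc peaks were narrow in every library. For Afm the widths were 902 and 652 bp in liver and 952 and 502 bp in yolk sac (exact permutation p = 1), and for Gc they were 1152, 302, 852 and 202 bp in the same order of tissues and replicates (exact permutation p = 0.667). Both sets of values overlapped between tissues, and in each tissue replicate 1 was wider than replicate 2. At Afm the liver peaks lay mostly inside the gene and the yolk sac peaks mostly upstream, ending 670 and 620 bp after the start in liver and at 420 and -80 bp in yolk sac. How many coding genes differ in this way was not computed. For comparison, the median promoter peak of coding genes was 1652 and 1502 bp in liver and 1702 and 1552 bp in yolk sac. Among 11805 coding genes called in all 4 libraries, 34.5% had both yolk sac widths above both liver widths and 20.9% had the reverse, and none of Alb, Afm and Gc was in either class.

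**Figure D2:**
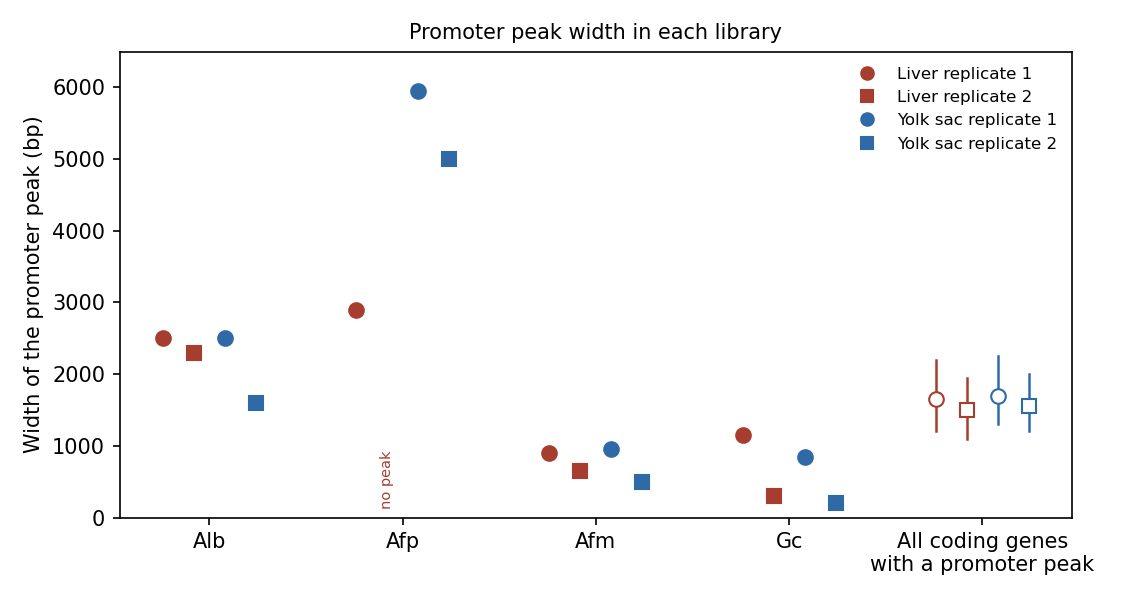
Width of the promoter peak (vertical axis, bp) of Alb, Afp, Afm and Gc in each library, with circles for replicate 1 and squares for replicate 2. Open symbols with bars give the median and quartiles over all coding genes with a promoter peak. The yolk sac values of Afp, 5952 and 5002 bp, lie above all others, and Afm and Gc lie at or below 1152 bp in every library.

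The score ranks of the 4 promoters were below that of the median promoter in every list that called them. The Alb peak lay at the 37.1 and 50.8 percentiles in liver and the 44.2 and 22.7 percentiles in yolk sac. The Afp peak lay at 40.8 in liver replicate 1 and at 62.9 and 39.4 in yolk sac. Afm lay at 40.4 and 31.2 in liver and 27.5 and 24.6 in yolk sac, and Gc at 36.1 and 27.8 in liver and 45.6 and 20.9 in yolk sac. Over all coding genes the median promoter peak lay between the 67.0 and 72.0 percentiles of the 4 lists, above each of these values.

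Ranks below the middle were also seen against promoters alone. Afp, which was not called in all 4 libraries, scored higher than 13.9% of all called coding promoters in liver replicate 1. In yolk sac it scored higher than 34.1% and 7.36% of them. Of the coding genes called in all 4 libraries, those with lower scores than Alb made up about 9.22%, 22.1%, 4.17% and 0.864% in liver replicates 1 and 2 and yolk sac replicates 1 and 2. In this fixed set of genes Afm ranked higher in both liver libraries, at 11.4 and 4.67, than in either yolk sac library, at 0.584 and 0.9996 (exact permutation p = 0.333), as did 30.9% of the genes in the set. The ranks of Alb were likewise higher in both liver libraries (exact permutation p = 0.333). Gc, at 8.72 and 3.61 in liver and 5.11 and 0.669 in yolk sac, overlapped between tissues. Thus 2 of these 3 members ranked higher in liver and none ranked higher in yolk sac, where 25.7% of the set did.

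The site with the highest score rank lay upstream of Alb. In all 4 lists the highest-scoring peak within 50 kb of the Alb-Afp-Afm interval (chromosome 5, 90410897 to 90603543) was at the same site, between about 14 and 10 kb before Alb. The merged region of this site spanned 90446951 to 90450702 and was intergenic. Its top peak ran from -11546 to -10195 bp in liver replicate 1 and from -11396 to -10295 bp in replicate 2, relative to the Alb start. In yolk sac it ran from -13946 to -10295 bp in replicate 1 and from -11896 to -10245 bp in replicate 2. These peaks lay at the 79.0 and 90.4 percentiles in liver and at 99.2 and 85.5 in yolk sac. The result depended on the flank of 50 kb. A yolk-sac-only region 57.6 kb before Alb ranked higher in yolk sac replicate 2, at 90.2, and lower in replicate 1, at 90.8. In each list between 2 and 9 peaks of the interval scored higher than the Alb promoter peak. At the top site of the interval 1954 and 1504 bp were covered in liver and 3652 and 2154 bp in yolk sac, with no overlap between tissues. Of the regions called in all 4 libraries genome-wide, 42.6% were likewise covered over a longer length in both yolk sac libraries.

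Further upstream of Alb 3 more intergenic regions were called in all 4 libraries. The region centred 20.1 kb before Alb (90438601 to 90443002) was covered over 1102 and 1102 bp in liver and 3602 and 3552 bp in yolk sac, a gap larger than the difference between replicates of either tissue. The region at 29.3 kb (90430601 to 90432602) had 902 and 652 bp in liver and 1552 and 1902 bp in yolk sac, again with no overlap. The region at 46.3 kb (90414151 to 90415102) went the other way, with 952 and 652 bp in liver and 102 and 402 bp in yolk sac. Among regions called in all 4 libraries genome-wide, 42.6% were longer in both yolk sac libraries and 18.8% in both liver libraries. A yolk-sac-only region, as were 33.0% of merged regions genome-wide, lay at 27.3 kb (90433251 to 90434002), with peaks of 752 and 502 bp. Over the 50 kb upstream of Alb the number of peaks was 5 and 5 in liver and 5 and 6 in yolk sac (exact permutation p = 1). The covered length was 5081 ± 813 and 9507 ± 847 bp (SD, n = 2), with both yolk sac values above both liver values (exact permutation p = 0.333). No share was computed for stretches of 50 kb. In windows as long as the whole flanked Alb-Afp-Afm interval, with 10 or more peaks, 75.2% had this order.

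The interval between Alb and Afp held a further upstream region of Afp. It was centred 5.8 kb before the Afp start (90483401 to 90486452). Yolk sac replicate 1 had a single peak of 3052 bp there, and yolk sac replicate 2 had 904 bp in 2 peaks. Liver replicate 1 had 502 bp in 1 peak and liver replicate 2 had 704 bp in 2 peaks, so the tissues did not overlap but most of the difference came from yolk sac replicate 1. This order was held by 42.6% of regions called in all 4 libraries genome-wide. The highest percentile was 13.9 and 29.05 in liver and 74.2 and 57.8 in yolk sac. Liver replicate 1 also had a separate peak of 602 bp from -2336 to -1735 bp relative to the Afp start, a stretch that the long promoter peak covered in both yolk sac libraries.

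Peaks covered 2140 and 1754 bp of this interval in liver and 5738 and 3440 bp in yolk sac, or 1947 ± 273 and 4589 ± 1625 bp (SD, n = 2; exact permutation p = 0.333). This comparison was not among those planned beforehand, and no genome-wide share was computed for it. It is not independent of the Afp promoter widths given above. The upstream part of that promoter peak made up 2686 of the 5738 bp and 2536 of the 3440 bp in yolk sac. In liver replicate 1 it made up 436 of the 2140 bp. Expressed as a share of the interval, the covered length was 15.1% and 12.4% in liver and 40.6% and 24.3% in yolk sac. Peak number did not follow the covered length, at 3 and 3 in liver and 1 and 3 in yolk sac. In lists shortened to their 24333 top peaks the values were 2140 and 1754 bp in liver and 5738 and 802 bp in yolk sac, so that the tissues overlapped.

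The end of Alb gave the only liver-only region of the flanked intervals. It spanned 90476251 to 90477652 and crossed the annotated end of the gene, and its peaks were 902 and 1402 bp wide with score percentiles of 34.5 and 19.1. Neither yolk sac list had a peak there. Genome-wide, 6.62% of the 61095 merged regions were called in both liver and no yolk sac libraries.

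Yolk-sac-only regions lay in and around Afm. The pattern was held by 33.0% of merged regions genome-wide and by 17.4% (4 of 23) in the 2 flanked intervals. Between Afp and Afm, a region at 90510151 to 90512202 lay in an intron of the antisense transcript Gm43449, with yolk sac peaks of 1852 and 1052 bp at the 17.4 and 26.9 percentiles. Within Afm, a region 13.2 kb after the start (90531451 to 90532802) overlapped an exon, with peaks of 1352 and 652 bp at the 56.8 and 24.1 percentiles. In the 50 kb after Afm, a region at 90588401 to 90589152 overlapped an exon of Gm42109 and lay in an intron of 5830473C10Rik, at the 82.5 and 21.2 percentiles. Liver had 0 and 0 peaks in these last 50 kb and yolk sac 2 and 2. The lists hold no strand, so initiation at Gm43449 cannot be told apart from initiation in the sense direction.

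Around Gc the lists were sparse. Within 50 kb of the gene (89367522 to 89507898) each liver list held 1 peak, yolk sac replicate 1 held 3 and yolk sac replicate 2 held 2 (exact permutation p = 0.333). The promoter peak was the only region called in more than 1 library. The other 3 regions were each called in a single yolk sac library, with peaks between 102 and 302 bp wide at or below the 9.67 percentile. Gc thus had no region at a distance that was called in both libraries of a tissue, whereas Alb had 5 within 50 kb upstream.

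Counted together, the 2 flanked intervals held 23 merged regions. All 4 libraries called 9 of them (39.1%, against 25.7% of regions genome-wide), 4 were yolk-sac-only (17.4%, against 33.0%), 1 was liver-only (4.35%, against 6.62%) and 9 had other patterns. Of the 9 shared regions, 5 were covered over a longer length in both yolk sac libraries, 1 in both liver libraries and 3 overlapped. Genome-wide, 42.6% and 18.8% of regions called in all 4 libraries were in the first 2 of these classes. The region over the Afp start is among the 5. In liver replicate 2 it held only peaks of 102 and 202 bp inside the gene, which merged with the long yolk sac peaks. In lists shortened to their 24333 top peaks there were 3 shared, 5 liver-only and 0 yolk-sac-only regions, so the balance between tissues changed with the length of the lists.

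**Figure D3:**
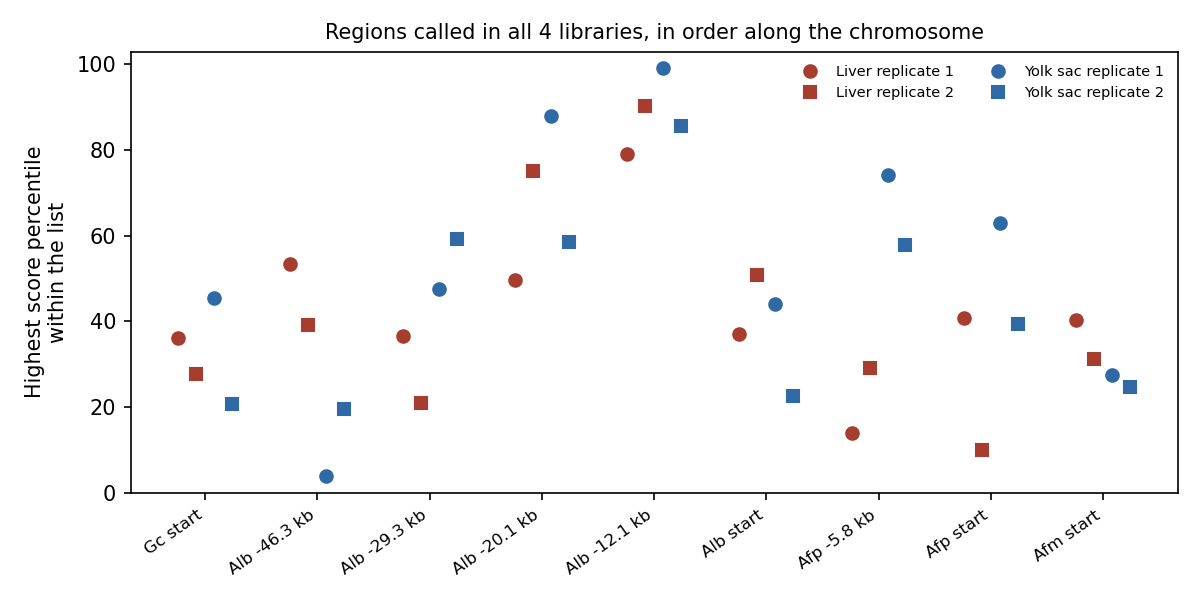
Highest score percentile within the list (vertical axis) for the 9 regions called in all 4 libraries, ordered by position and named by the gene start they cover or by their distance from it. Circles are replicate 1 and squares replicate 2, red for liver and blue for yolk sac. The region 12.1 kb before Alb is above 79 in every library, and the regions of the 4 gene starts are at 62.9 or below. For liver replicate 2 the value at the Afp start, 10.1, is that of a peak of 202 bp inside the gene, not over the start.

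The whole flanked Alb-Afp-Afm interval held 13 peaks in liver replicate 1 and 12 in replicate 2, and 14 and 18 in the yolk sac replicates, or 12.5 ± 0.707 and 16 ± 2.83 (SD, n = 2; exact permutation p = 0.333). Of 4821 equally long windows that held 10 or more peaks, 72.5% had more in both yolk sac libraries and 5.33% had more in both liver libraries. The log2 ratio of yolk sac to liver, with 0.5 added to each mean, was 0.34 here and 0.83 in the median window, whose quartiles were 0.32 and 1.49. The length covered by peaks differed more than their number. It was 13426 and 9274 bp in liver and 26428 and 19486 bp in yolk sac for peaks centred in the interval, a ratio of 2.02 against 1.67 in the median of the 4634 windows with peaks in both tissues. As a log2 value the ratio here was 1.02, between the quartiles of these windows, 0.227 and 1.43. The mean peak was 1033 and 773 bp long in liver and 1888 and 1083 bp in yolk sac. Both yolk sac libraries covered more than both liver libraries in 75.2% of windows, and the reverse held in 9.42%. In lists shortened to their 24333 top peaks, yolk sac minus liver was -7 peaks in this interval and -1 around Gc.

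Between Gc and Alb (89457899 to 90460896) there were 9 peaks in liver replicate 1, 8 in liver replicate 2 and 15 in each yolk sac library (exact permutation p = 0.333), and in the shortened lists the difference turned to -1.5. Outside the flanks, the regions called in all 4 libraries were the promoters of Adamts3, a procollagen-processing protease, of Cox18, a mitochondrial assembly factor, and of Ankrd17, whose peak Gm9958 shared. Of the 10 regions outside the flanks, 5 were yolk-sac-only (50%, against 33.0% genome-wide), and these lay between Ankrd17 and Alb. The leading one, at 90402751 to 90403802 and 57.6 kb before Alb, had peaks of 1052 and 902 bp at the 90.8 and 90.2 percentiles. None of the 10 was liver-only, against 6.62% genome-wide. Among the flanking genes, Npffr2 and 5830473C10Rik had no promoter peak in any library and Rassf6, a Ras-association protein, had one in all 4.

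Genes with promoter ranks most like those of the members were found by the sum of absolute percentile differences over the 4 libraries, among coding genes that are not predicted or clone-named, with a missing call, such as that of Afp in liver replicate 2, set to 0. For Gc they were Lrrc9 (12.9), Serpinf1 (17.2) and Apoa2 (18.0), the last a plasma apolipoprotein. For Alb they were Evi2b (14.1), Btbd2 (16.3) and Tctn3 (17.1). For Afp they were Ankrd39 (17.8), Apoc3 (27.1), another apolipoprotein gene, and Fmr1nb (28.4). For Afm they were Dcbld2 (10.6), Fam32a (16.0) and Smim6 (17.2).

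Other plasma protein genes were called about as often in the 2 tissues. Of 26 such genes, 23 and 20 had a promoter peak in liver and 23 and 21 in yolk sac (exact permutation p = 1), and 17 (of all coding genes, 53.8%) were called in all 4 libraries. Hp, which encodes haptoglobin, and Ambp, the precursor of a plasma protease inhibitor and of a heme-binding protein, were liver-only, as were 1.01% of coding genes. Fgb, the fibrinogen beta chain, was yolk-sac-only, as were 5.25%. In the shortened lists the difference between yolk sac and liver was -8 genes. Apoa4, Apoc3 and Serpinc1 had the pattern of Afp, lacking a call in liver replicate 2 alone, and a call in each yolk sac library and just 1 liver library was held by 2.86% of coding genes. The median rank of the genes called was 38.7 and 37.9 in liver and 54.9 and 52.4 in yolk sac. These lay below the medians of all coding promoters, which were 67.6 and 67.0 in liver and 71.6 and 72.0 in yolk sac. Both sets of medians come from lists of unequal length. In ranks among shared genes, 3 of the 17 were higher in both yolk sac libraries and 4 in both liver libraries, against 25.7% and 30.9% of all shared genes. Leading genes by lowest rank were Apoh, at or above 89.6, Rbp4, the plasma retinol carrier, at or above 56.9, and Itih2, at or above 51.3. Of the 17 shared genes, 9 had both yolk sac widths above both liver widths and 4 had the reverse, where 34.5% and 20.9% of all shared genes did.

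The known regulators of the family were called throughout. All 20 genes of the list had a promoter peak in all 4 libraries, against 53.8% of coding genes. The list includes the activators Hnf4a, Foxa1 to Foxa3 and Cebpa and the repressors of Afp, Zbtb20, Zhx2 and Zfhx3. Peaks were wider in both yolk sac libraries at 13 of the 20 genes and in both liver libraries at 4, where 34.5% and 20.9% of shared genes were. In ranks among shared genes, 10 were higher in both yolk sac libraries and 2 in both liver libraries, against 25.7% and 30.9%. The leading genes by lowest rank were Tef, at or above 90.1, Zbtb20, at or above 78.6, and Trp53, at or above 72.7.

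Genes that take up or handle these proteins and their vitamin cargo had calls at more members in each yolk sac library than in either liver library. Of 11 genes, 7 and 6 had a promoter peak in liver and 10 and 10 in yolk sac (6.5 ± 0.707 against 10 ± 0, SD, n = 2; exact permutation p = 0.333). Over all coding genes the share called was also higher in yolk sac, at 63.8% and 62.4%, than in liver, at 56.1% and 57.9%. Cubn and Amn, which form the cubilin receptor that takes up vitamin D-binding protein and albumin, and Cyp24a1, which degrades vitamin D, were yolk-sac-only, a pattern of 5.25% of coding genes. Lrp2, the megalin receptor, had peaks of 5302 and 4552 bp in yolk sac, 1 of 502 bp in liver replicate 1 and none in liver replicate 2. Fcgrt, which recycles albumin, was called in all 4. The leading genes by lowest rank were Cyp27a1, at or above 95, and Cyp2r1, at or above 70.3, in all 4 libraries, and Amn, at or above 77.05 in the 2 yolk sac libraries that called it. This list shares Lrp2, Cubn, Amn and Dab2 with the yolk sac endoderm markers above.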

How the data were processed

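PRO-seq peaks of liver (2 libraries) and yolk sac (2 libraries) were analysed. Per the submitters' processing notes, Bowtie2 and bedtools were used with mm10. Their versions, the dREG version and filters are not given in the sources used here. The authors deposited 1 peak list per library, with positions and a score per peak (0.80 or more). The score is in the authors' own scale and was not rescaled. Positions and widths (other values, in bp) are as deposited, written 1-based.

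With Python 3.11.15, numpy 2.4.6 and pandas 2.3.3, a gene was called where a peak overlapped 500 bp either side of an annotated start, and the highest-scoring such peak was used. Peaks overlapping by 1 bp were merged into regions. Peaks were counted by midpoint. Tissues were compared with exact permutation tests. Region and promoter functions were tested on simulated lists. Named were the 4 members, the coding genes of their flanks, list genes called in 1 tissue only, the 3 leading genes of each list and the 3 nearest in ranks, as well as regions called in both libraries of a tissue. Other genes were named with their values known. Members and lists were chosen with earlier results of these data known. Alternatives were other windows, flanks, merging rules, score filters, the leaving out of each library and a replicate block.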

Additional observations from a re-analysis of the deposited data

How the results depend on the processing

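Values here are yolk sac minus liver means unless said otherwise, and the depth of the libraries, which is unknown, limits all of them. When each list was limited to its 24333 highest-scoring peaks, which drops the lower part of the longer yolk sac lists, the difference in peaks turned from 3.5 to -7 in the flanked Alb-Afp-Afm interval, from 1.5 to -1 around Gc and from 6.5 to -1.5 between Gc and Alb. Members called turned from 0.5 to -3 and plasma protein genes from 0.5 to -8, regulators went from 0 to -1 and receptor and carrier genes from 3.5 to 2. The covered length between Alb and Afp fell from 2642 to 1323 bp, the rank difference of Afp turned from 10.3 to -16.6, and shared, liver-only and yolk-sac-only regions went from 9, 1 and 4 to 3, 5 and 0. With the higher-scoring 50% of each list the peak differences were 0 around Gc and 2 between Gc and Alb, members were 0, the 3 gene lists 5.5, 9 and 4.5, and the regions 1, 0 and 1. In that setting the members called fell from 4 and 3 to 0 and 1 in liver. In yolk sac they fell from 4 and 4 to 1 and 0, and no list held a peak around Gc. Among other settings, a flank of 100 kb gave 10.5 peaks, counting overlapping peaks gave 6 between Gc and Alb, a window of 1000 bp gave 0 for members and, for Afp, a width difference of 3975 instead of 2575 bp and a rank difference of 30.3, joining at 50% overlap gave 2 liver-only regions, and the start of the gene record alone gave -0.5 plasma protein and 1 regulator genes. The rank difference of Gc was 1.26 and turned to -3.28 among genes called in all 4 libraries. The cause of these changes was not tested.

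Leaving out 1 library at a time gave 1.5 to 5.5 peaks in the flanked interval, 1 to 2 around Gc, 6 to 7 between Gc and Alb, 0 to 1 members, -1 to 2 plasma protein genes, 3 to 4 receptor and carrier genes and 1493 to 3791 bp covered between Alb and Afp. The shared regions were 9 to 10, the liver-only regions 1 to 3 (3 without liver replicate 2) and the yolk-sac-only regions 4 to 10 (10 without yolk sac replicate 1, 8 without replicate 2), since a call then needed 1 library. The rank differences ran from -11.1 to 13.6 for Gc, -21.3 to 0.219 for Alb, -1.38 to 22.1 for Afp and -14.4 to -5.14 for Afm, which alone of the 4 kept its sign, and the width differences from -625 to 225 bp for Gc, -800 to 100 bp for Alb, -275 to 175 bp for Afm and 2100 to 3050 bp for Afp, so that of the 4 widths only that of Afp kept its sign (without liver replicate 1 it has no value). The replicates share only a number. The replicate block left each difference as it was (3.5 peaks in the flanked interval) and can give no p below 0.5. In all, 141 of 205 values under an alternative moved by less than the spread between replicates (region counts by at most 1.5 times), 45 moved further and 19 changed sign. The 141 include the replicate block, which could not move a difference, and the choice of the widest peak, which moved none. Their share is therefore not a measure of stability.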
